A study of Homo sapiens with 12 samples.

Results

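Integrins are the receptors through which cells hold on to the extracellular matrix, and 10 of their subunit genes were examined in HT1080 cells: the alpha subunits ITGA2, ITGA3, ITGA5, ITGA6 and ITGAV and the beta subunits ITGB1, ITGB3, ITGB4, ITGB5 and ITGB8. They were taken by gene symbol from a table of 46427 genes. The rule used the symbols and not the measured change, but the list was chosen with earlier results of these data known. HT1080 is an established human fibrosarcoma line. Its cells had been transfected with scrambled siRNA, with siTRIP12, with siOTUD5, or with siTRIP12 and siOTUD5 together, and each of these 4 groups was sequenced as 3 poly(A) RNA libraries. TRIP12 is a HECT-type ubiquitin ligase and OTUD5 a deubiquitylase, and per its title the series is about ubiquitin codes that degrade substrates and about their removal. Every group, the control included, carried transfected siRNA, and no untransfected cells were part of the comparisons. The labels give no siRNA sequence, no dose and no time after transfection, nor if replicates were cultured separately, so the p-values measure the spread between these libraries, which may be technical. The cell line label counts up from HT1080 to HT1091 over the 12 libraries, while the design names HT1080 alone.

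An integrin is a pair of 1 alpha and 1 beta subunit, and the pairing sets which ligand is bound. The alpha 5 beta 1 pair is the classical fibronectin receptor, alpha 3 beta 1 and the alpha 6 pairs bind laminins, and alpha 2 beta 1 binds collagens. Of the beta subunits examined here, the alpha V subunit joins beta 1, 3, 5 or 8 in receptors for vitronectin, fibronectin and latent TGF-beta. Beta 1 is the shared partner of most alpha subunits in adherent cells, and beta 4 pairs with alpha 6 in the hemidesmosomes of epithelia. Inside the cell talins and kindlins activate integrins and link them to actin, and endosomal sorting returns them to the surface.

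The genes lie on 7 chromosomes of GRCh38.p14. ITGA6 (172427336 to 172506459) and ITGAV (186590056 to 186680901) both lie on chromosome 2, and ITGA3 (50056110 to 50090481), ITGB3 (47253827 to 47313743) and ITGB4 (75721459 to 75757818) lie on chromosome 17. ITGA2 lies on chromosome 5 (52989352 to 53094779), ITGA5 on 12 (54395261 to 54419266), ITGB1 on 10 (32900318 to 32958230), ITGB5 on 3 (124761948 to 124901418) and ITGB8 on 7 (20329766 to 20415754). The promoters of 3 alpha genes are shown because these genes moved differently under the knockdowns. ITGAV was lower after siTRIP12, ITGA5 and ITGA6 were higher after siOTUD5, and ITGA5 and ITGA6 followed each other. The windows are RefSeq sequence of GRCh38.p14 from 250 bases before to 50 bases after the annotated start, 5′ to 3′ on the strand of the gene, and capitals mark motif matches.
ITGA5, chr12:54419217-54419516, minus strand: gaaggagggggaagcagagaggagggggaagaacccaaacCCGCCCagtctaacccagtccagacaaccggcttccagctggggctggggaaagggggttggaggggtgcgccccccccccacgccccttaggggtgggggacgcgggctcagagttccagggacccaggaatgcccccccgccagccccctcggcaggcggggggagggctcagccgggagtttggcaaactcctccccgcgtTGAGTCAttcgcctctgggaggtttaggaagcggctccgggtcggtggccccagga
ITGA6, chr2:172427086-172427385, plus strand: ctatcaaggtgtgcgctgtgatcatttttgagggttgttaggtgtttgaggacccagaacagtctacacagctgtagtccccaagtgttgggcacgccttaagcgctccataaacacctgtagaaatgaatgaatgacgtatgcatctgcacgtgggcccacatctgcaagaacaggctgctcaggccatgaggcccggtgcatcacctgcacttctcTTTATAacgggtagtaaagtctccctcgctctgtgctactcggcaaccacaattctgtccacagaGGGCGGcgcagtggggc
ITGAV, chr2:186589806-186590105, plus strand: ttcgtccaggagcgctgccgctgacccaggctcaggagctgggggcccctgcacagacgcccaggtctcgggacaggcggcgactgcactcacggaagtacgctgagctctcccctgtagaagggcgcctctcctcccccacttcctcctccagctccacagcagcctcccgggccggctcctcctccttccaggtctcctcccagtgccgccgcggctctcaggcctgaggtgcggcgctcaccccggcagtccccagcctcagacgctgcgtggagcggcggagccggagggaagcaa
Searched on both strands were the AP-1 site TGANTCA, the GC box GGGCGG, the CCAAT box CCAAT and the TATA box TATAAA. The ITGA5 window held 1 AP-1 match, starting at base -6 from the start site, and 1 GC box at base -210. The ITGA6 window held 1 TATA match at base -32, read on the opposite strand, and 1 GC box at base 33. ITGAV held none of the 4 motifs, which says only that these letters are not in its window. Of 35116 promoter windows of the same length, 7.71% held the AP-1 letters, 45.0% the GC box, 34.6% CCAAT and 11.5% TATAAA. GC content was 69.3% for ITGA5, 53.0% for ITGA6 and 70.7% for ITGAV, against a median of 58.7% over those windows. Promoter windows were matched for 7 of the 10 genes. The other matched windows, of ITGA2, ITGB1, ITGB5 and ITGB8, held 4, 3, 2 and 2 GC boxes, and that of ITGB8 also held 1 CCAAT box. The ITGB8 window belongs to a start 1134 bases inside the annotated gene, while the windows of the other 6 lie at the gene's start.

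Library totals ranged from 37912312 to 43881471 reads, and all 10 integrin genes were among the 16283 genes with enough reads to be tested. TRIP12 was left at 13.0% of the scrambled level in siTRIP12 and at 16.5% in siTRIP12+siOTUD5. OTUD5 was left at 18.6% in siOTUD5 and at 18.2% in siTRIP12+siOTUD5, and stood at 123% in siTRIP12. Of 14 mesenchymal markers, 11 were above 1 FPKM in scrambled cells, led by VIM and SPARC. Of 12 epithelial markers 3 were, among them KRT8 and KRT18, while the adhesion genes CDH1 and EPCAM had 14 and 4 reads over all 12 libraries. The summed level of the mesenchymal markers was 1922 to 2008 FPKM in scrambled, 1651 to 1691 in siTRIP12, 1857 to 1929 in siOTUD5 and 1670 to 1768 in siTRIP12+siOTUD5. For the epithelial markers it was 279 to 299, 204 to 226, 252 to 269 and 238 to 252 FPKM. VIM (1632 FPKM in scrambled) and SPARC (267) make up most of the first sum, and KRT8 (163) and KRT18 (123) most of the second. Against scrambled, 0 of 13 mesenchymal markers tested rose and 6 fell in siTRIP12 (adjusted p under 0.05 in edgeR, shares over all genes below). In siOTUD5 3 rose and 0 fell, and with both siRNAs 4 rose and 5 fell. Of 4 epithelial markers tested none rose, and 3, 2 and 3 fell in these groups. The part of these shifts in the integrin results was not tested, and in bulk RNA fewer cells of a kind cannot be told apart from less RNA per cell. No leukocyte or platelet marker of 12 reached 1 FPKM, and 1 of 8 endothelial markers did (TIE1, at 49.5 FPKM in scrambled). Scrambled replicate 3 lay apart from the other libraries of its group on the third principal component (-35.8, against 10.9 and 30.0). Calls of integrin genes that changed without it are given both ways.

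Fibrosarcoma cells expressed 8 of the 10 subunits above 1 FPKM, a length-scaled level that allows genes to be compared. In scrambled cells ITGB1 stood first with 283 ± 5.95 FPKM (SD, n = 3), rank 177 of 12901 protein-coding genes. ITGA3, the laminin-binding alpha 3 subunit, followed at 162 ± 17.5 FPKM. ITGA5 (76.4 ± 9.29), ITGA6 (71.0 ± 3.45) and ITGB5 (70.3 ± 4.06 FPKM) came next and did not differ from one another beyond their spread. ITGAV was at 40.0 ± 3.40 FPKM, ITGA2 at 23.9 ± 4.88 and ITGB3 at 6.71 ± 0.855, each below its neighbour by more than the spread. ITGB4 and ITGB8 were nearly silent.

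ITGB4, the hemidesmosomal beta 4 subunit, had 0, 14 and 16 reads in the scrambled libraries, 11, 33 and 14 in siTRIP12, 0, 13 and 27 in siOTUD5, and 17, 8 and 10 in siTRIP12+siOTUD5. ITGB8, which joins alpha V, had 10, 8 and 0 reads in scrambled, 8, 8 and 0 in siTRIP12, 16, 16 and 7 in siOTUD5, and 6, 8 and 7 in siTRIP12+siOTUD5. The groups overlapped or were too shallow for a call in both genes, and no difference was detectable at this depth. The 3′ part of ITGB4 also overlaps 6350 bases of GALK1, which lies on the opposite strand and had 11215 reads against 163 for ITGB4. Whether counting used strand is not stated, so some ITGB4 reads cannot be told apart from those of GALK1.

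Summed over the 5 alpha and the 5 beta genes, alpha RNA and beta RNA were close in scrambled cells, at 373 ± 37.7 and 360 ± 3.51 FPKM. Scrambled replicate 3 was the lowest of its group in alpha RNA, with 329.9 FPKM against 393 and 397, but not in beta RNA, with 359.7 FPKM against 356 and 363. ITGA3 made up 43.4% of the alpha sum, ITGA5 20.4%, ITGA6 19.1%, ITGAV 10.7% and ITGA2 6.35%. ITGB1 made up 78.6% of the beta sum, ITGB5 19.5% and ITGB3 1.87%. These shares describe RNA and not the receptors on the surface.

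**Figure D1:**
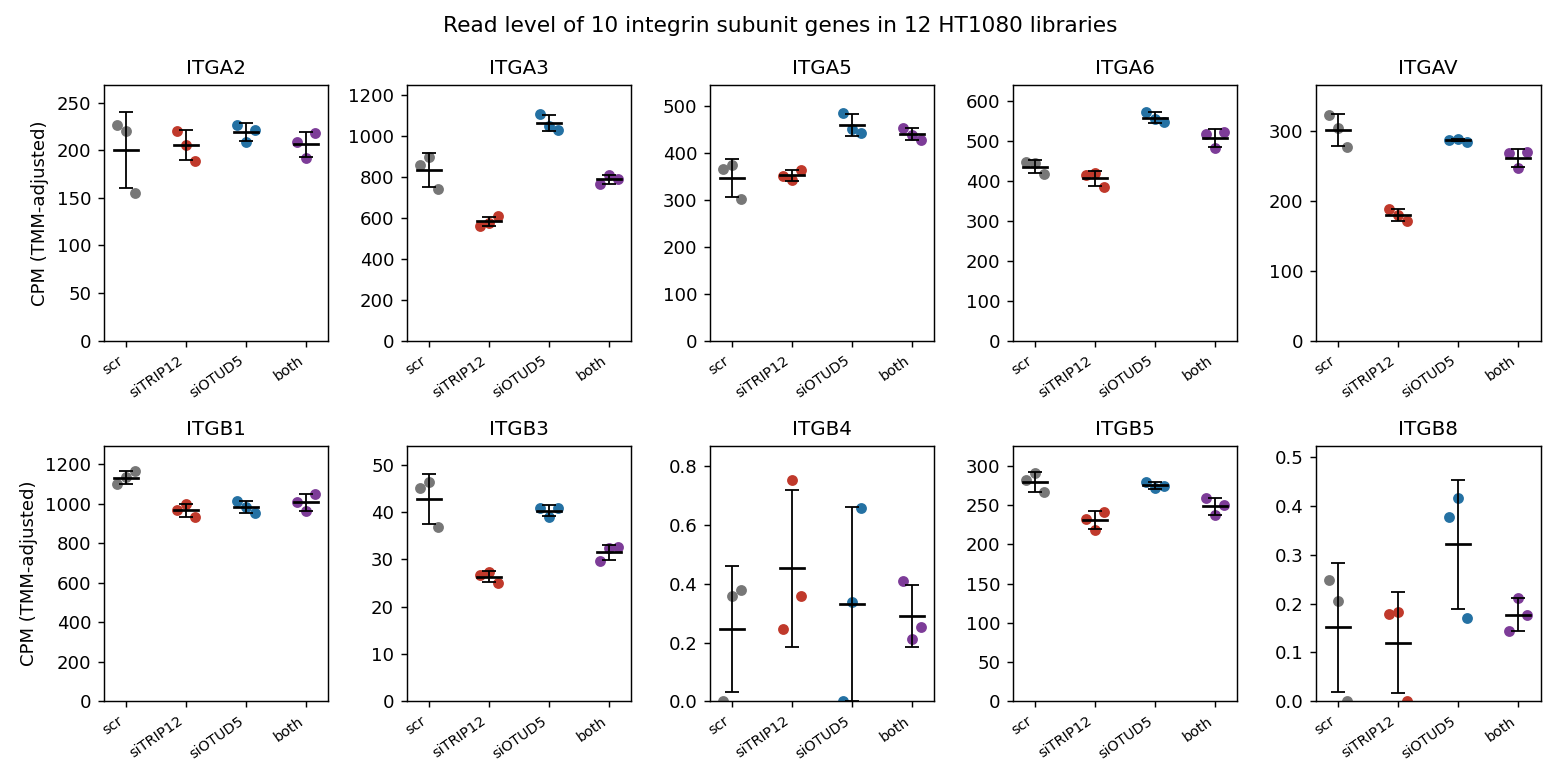
Level of each subunit in CPM, on an axis from 0 in each panel, for every library of the 4 groups (scr is scrambled, both is siTRIP12+siOTUD5). Points are libraries, and lines and bars the group mean and SD. ITGA3, ITGAV and ITGB3 sit lowest in siTRIP12, ITGA5 and ITGA6 sit highest in the groups with siOTUD5, and ITGB4 and ITGB8 lie far under the other 8.

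TRIP12 knockdown alone was compared with scrambled siRNA. All 5 integrin genes that were called fell: the alpha V subunit, its partners beta 3 and beta 5, the laminin receptor subunit alpha 3, and beta 1. ITGAV, ITGB3 and ITGA3 lost the most, and ITGA5, the fibronectin receptor subunit, stayed close to its scrambled level. A gene was called at an adjusted p under 0.05 over all genes in edgeR's quasi-likelihood test, and by this rule 31.9% of all genes tested were called, 14.5% higher and 17.4% lower (2367 and 2827 genes, but 2964 and 2232 with upper-quartile scaling). For 5 of the 10 genes the libraries of the groups did not overlap, against 41.4% of all genes. The median log2 change was -0.25 over the 10 genes and 0.01 over all genes.

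ITGAV was at 323, 304 and 277 CPM (reads scaled to a common library size) in the scrambled libraries and at 189, 180 and 171 CPM in siTRIP12. Every siTRIP12 library lay below every scrambled library. The change was -0.74 ± 0.06 on the log2 scale (SE, n = 3 per group, adjusted p = 5.08e-08), which left 59.7% of the scrambled level.

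ITGB3, which with alpha V forms a vitronectin receptor, was at 45.1, 46.4 and 36.8 CPM in scrambled and at 26.7, 27.3 and 25.0 CPM in siTRIP12 (log2 -0.70 ± 0.08, adjusted p = 4.32e-06). The scrambled libraries were spread widely, but all of them lay above the siTRIP12 libraries. ITGB5, the other vitronectin receptor partner of alpha V, fell less, from 282, 291 and 266 CPM to 232, 219 and 241 CPM (log2 -0.28 ± 0.05, adjusted p = 0.000608).

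ITGA3 was at 858, 899 and 741 CPM in scrambled and at 562, 577 and 608 CPM in siTRIP12, with no overlap (log2 -0.52 ± 0.06, adjusted p = 9.62e-06). ITGB1 moved from 1098, 1134 and 1163 CPM to 966, 998 and 935 CPM (log2 -0.23 ± 0.05, adjusted p = 0.00265). The groups of ITGB1 did not overlap either, though its change was the smallest of the 5.

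ITGA5 was at 366, 375 and 301 CPM in scrambled and at 350, 342 and 365 CPM in siTRIP12, so the groups overlapped (log2 0.02, 95% interval -0.12 to 0.16, adjusted p = 0.853). ITGA6, another laminin receptor subunit, stood at 446, 443 and 416 CPM and at 414, 419 and 384 CPM (log2 -0.10 ± 0.05, adjusted p = 0.16). It was called without scrambled replicate 3 (log2 -0.13, adjusted p = 0.0389). The collagen receptor subunit ITGA2 was at 226, 220 and 155 CPM in scrambled, where replicate 3 was low, and at 221, 206 and 189 CPM in siTRIP12. Its log2 change was 0.04 ± 0.12 (adjusted p = 0.856), and -0.12 without scrambled replicate 3 (adjusted p = 0.134).

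Genes around the receptors were counted in lists, which were also chosen with earlier results of these data known. Of 19 surface partners tested 8 fell and 1 rose, with the tetraspanin CD82 (log2 -1.43 ± 0.06, adjusted p = 1.28e-11), the proteoglycan SDC4 (-0.91 ± 0.05), the hyaluronan receptor CD44 (-0.66 ± 0.05) and caveolin CAV1 (-0.56 ± 0.05) having the smallest p. Of 38 activators and adhesion adaptors 11 fell and 3 rose, among them the focal adhesion proteins ZYX (-0.42 ± 0.05), TNS1 (-0.81 ± 0.10) and PARVB (-0.58 ± 0.08), which fell, and the clathrin adaptor DAB2 (0.49 ± 0.08), which rose. Of 30 ligands 10 rose and 10 fell. The matrix genes THBS1 (1.12 ± 0.08) and LAMA2 (1.19 ± 0.10) rose, and TGFB2 (-1.56 ± 0.12) and COL6A1 (-0.58 ± 0.06) fell. Of 22 trafficking and maturation genes 7 fell and 2 rose, and the chaperone CALR (-0.57 ± 0.05) and the endosomal genes EHD1 (-0.51 ± 0.06) and RAB5A (-0.49 ± 0.06) were among those that fell. Of 16 other integrin subunits 8 had enough reads to be tested. ITGB2, the leukocyte beta 2 subunit with 418 reads in all, fell by 1.49 on the log2 scale (adjusted p = 0.00259), and ITGA10 fell by 0.60 (adjusted p = 0.0301).

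OTUD5 knockdown alone was compared with the same scrambled libraries, and a different set of alpha subunits moved. ITGA5, ITGA6 and ITGA3 rose and ITGB1 fell, while ITGAV, ITGB3 and ITGB5 were not called. Of all genes tested 23.2% were called, 11.4% higher and 11.9% lower. Groups did not overlap for 4 of the 10 genes and for 39.2% of all genes. The median log2 change of the 10 genes was 0.24, against -0.01 over all genes. It includes the nearly silent ITGB4 (log2 0.41 ± 0.96) and ITGB8 (1.08 ± 0.80), which both lay above it and were not called. This median therefore does not describe the expressed subunits alone.

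ITGA5 was at 487, 451 and 444 CPM in siOTUD5, above all of its scrambled libraries (log2 0.41 ± 0.07, adjusted p = 0.000401). ITGA6 was at 572, 556 and 546 CPM, also above all of them (log2 0.36 ± 0.05, adjusted p = 0.000117). ITGA3 was at 1108, 1050 and 1031 CPM, again without overlap (log2 0.35 ± 0.06, adjusted p = 0.000731). The 3 rises were of like size.

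ITGB1 went the other way, to 1013, 984 and 954 CPM (log2 -0.20 ± 0.05, adjusted p = 0.00892), a call lost without siOTUD5 replicate 3 (adjusted p = 0.0607). ITGAV was at 287, 288 and 285 CPM, within the scrambled range (log2 -0.07, 95% interval -0.19 to 0.05, adjusted p = 0.424). ITGB3 was at 40.9, 38.9 and 40.9 CPM (log2 -0.09 ± 0.08, adjusted p = 0.477), and ITGB5 at 280, 272 and 274 CPM (log2 -0.02 ± 0.05, adjusted p = 0.798). Without scrambled replicate 3, ITGB3 was called lower (log2 -0.19, adjusted p = 0.0473). ITGA2, at 227, 209 and 221 CPM, was not called (log2 0.13 ± 0.12, adjusted p = 0.487).

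Among the surrounding genes 9 of 38 activators and adaptors rose and 2 fell. The kindlin FERMT2 (log2 0.35 ± 0.05), the adaptor CRK (0.29 ± 0.05), the paxillin relative TGFB1I1 (0.36 ± 0.08) and the actinin ACTN4 (0.29 ± 0.07) had the smallest p. Of 30 ligands 10 rose and 5 fell, and the laminin chains LAMA5 (0.80 ± 0.12) and LAMB3 (0.36 ± 0.06) were among those that rose. CCN2, a matricellular ligand, fell (-0.40 ± 0.07). Of 19 surface partners 5 rose and 2 fell: the urokinase receptor PLAUR (0.46 ± 0.08), the amino acid transporter chain SLC3A2 (0.48 ± 0.11) and the tetraspanin TSPAN4 (0.39 ± 0.06) rose, and CD82 fell (-0.60 ± 0.06). Of 22 trafficking and maturation genes 5 rose and 2 fell, and FURIN (0.35 ± 0.06), the protease that cleaves several alpha chains, was among the rises. HSPA5 (-0.34 ± 0.05), which had the smallest p, and CALR (-0.28 ± 0.05) were those that fell. Of 8 other subunits ITGAE fell (-0.47 ± 0.10, adjusted p = 0.00288).

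**Figure D2:**
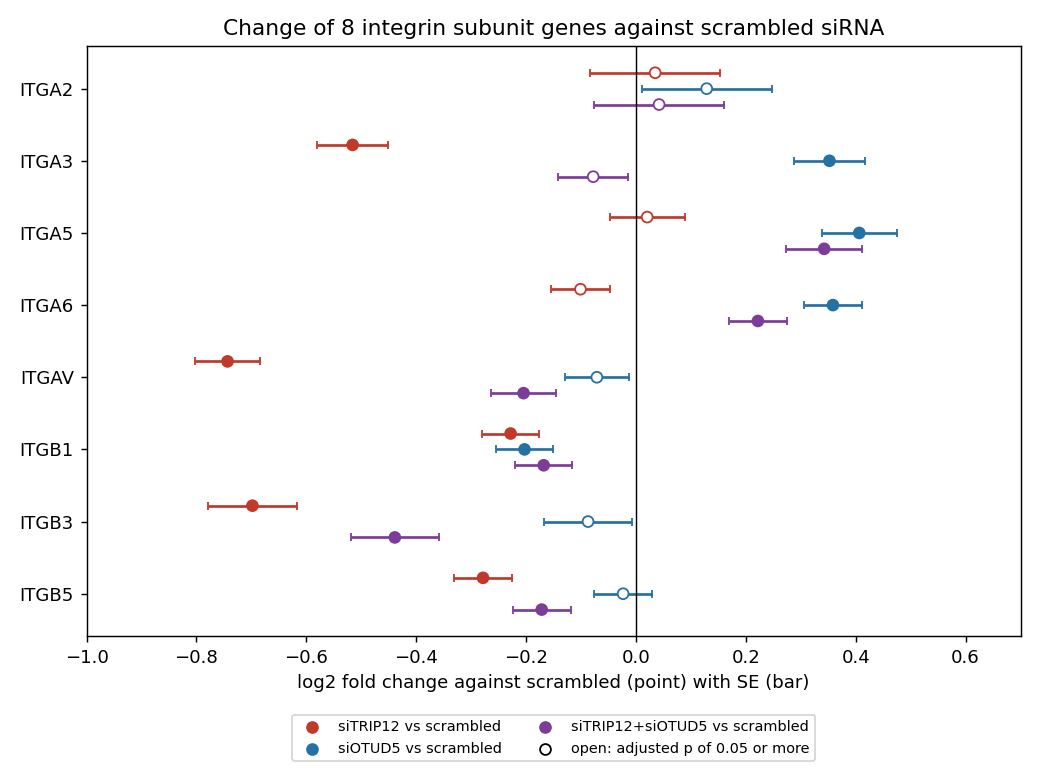
Log2 fold change of the 8 expressed subunits against scrambled siRNA (horizontal axis), with SE as bars, for the 3 knockdown groups. Filled points are called (adjusted p under 0.05): ITGAV (-0.74) and ITGB3 (-0.70) lie farthest left in siTRIP12, and ITGA5 (0.41) farthest right in siOTUD5.

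With both siRNAs 2 of the 10 genes rose against scrambled (ITGA5, ITGA6) and 4 fell (ITGB3, ITGAV, ITGB1, ITGB5), while ITGA3 was not called. ITGAV was at 86.8% of its scrambled level, against 59.7% in siTRIP12 alone. In this comparison 30.9% of all genes were called, 14.7% higher and 16.2% lower. Groups did not overlap for 6 of the 10 genes and for 42.5% of all genes. The 3 comparisons with scrambled share the control libraries, so their values stand side by side and are not independent.

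ITGA5 was at 454, 439 and 428 CPM (log2 0.34 ± 0.07 against scrambled, adjusted p = 0.00108) and ITGA6 at 517, 482 and 523 CPM (log2 0.22 ± 0.05, adjusted p = 0.00392). Neither overlapped with scrambled. ITGB3 was at 29.7, 32.4 and 32.5 CPM, below every scrambled library (log2 -0.44 ± 0.08, adjusted p = 0.000504). ITGAV was at 268, 246 and 270 CPM (log2 -0.20 ± 0.06, adjusted p = 0.0133), ITGB1 at 1008, 963 and 1051 CPM (-0.17 ± 0.05, adjusted p = 0.02) and ITGB5 at 259, 237 and 250 CPM (-0.17 ± 0.05, adjusted p = 0.0194). These last 3 calls rest on the choice of libraries. They were lost when the fit held the compared groups alone (adjusted p = 0.0619, 0.0795 and 0.0739). Each was also lost without siTRIP12+siOTUD5 replicate 2 (adjusted p = 0.0739 for ITGAV, 0.0978 for ITGB1 and 0.0927 for ITGB5). Without scrambled replicate 1 the ITGAV and ITGB5 calls were lost (0.0952 and 0.0615), as was that of ITGB5 without scrambled replicate 2 (0.076) and that of ITGB1 without siTRIP12+siOTUD5 replicate 1 (0.0615). ITGA3 was at 766, 810 and 791 CPM, inside the scrambled range (log2 -0.08, 95% interval -0.21 to 0.06, adjusted p = 0.389), but was called lower without scrambled replicate 3 (log2 -0.16, adjusted p = 0.0179). ITGA2, at 208, 192 and 218 CPM, was not called (log2 0.04 ± 0.12, adjusted p = 0.829).

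Of the other lists, 5 activators and adaptors of 38 rose and 7 fell, 11 ligands of 30 rose and 7 fell, 5 surface partners of 19 rose and 6 fell, and 5 trafficking genes of 22 rose and 5 fell. The laminin chain LAMA5 rose (log2 1.07 ± 0.12), as did PLAUR (0.62 ± 0.08). CD82 (-0.87 ± 0.06), CAV1 (-0.62 ± 0.05) and CALR (-0.51 ± 0.05) fell. Of 8 other subunits 4 fell: ITGAX, ITGAE, ITGA10 and ITGB2.

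The effect of adding siOTUD5 to siTRIP12 was read from the groups with and without siOTUD5 among the TRIP12-depleted libraries. ITGAV, ITGA3, ITGA5, ITGA6 and ITGB3 were higher when OTUD5 was depleted too, and none of the 10 genes was lower. Of all genes 15.7% were called, 8.78% higher and 6.93% lower. Groups did not overlap for 5 of the 10 genes and for 36% of all genes. ITGAV had 171 to 189 CPM in siTRIP12 and 246 to 270 CPM in siTRIP12+siOTUD5 (log2 0.54 ± 0.06, adjusted p = 9.51e-06). ITGA3 differed by 0.44 ± 0.06 (adjusted p = 0.00016), ITGA5 by 0.32 ± 0.07 (adjusted p = 0.00381) and ITGA6 by 0.32 ± 0.05 (adjusted p = 0.000445). For these 4 genes no library of one group lay within the range of the other. ITGB3 differed by 0.26 ± 0.08 (adjusted p = 0.0376), a call lost in 8 of the 12 fits that each left out 1 library, with adjusted p up to 0.131. ITGB1 and ITGB5 were not called (log2 0.06 ± 0.05 and 0.11 ± 0.05). TRIP12 itself was at 41.8 CPM in siTRIP12 and 53.2 CPM in siTRIP12+siOTUD5 (log2 0.35, adjusted p = 0.00794). The part of this remaining TRIP12 RNA in the differences was not tested.

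In the same comparison 8 of 19 surface partners rose and none fell, with SDC4 (log2 0.67 ± 0.05), PLAUR (0.67 ± 0.08), CD82 (0.56 ± 0.06) and CD44 (0.40 ± 0.05) having the smallest p. Of 38 activators and adaptors 6 rose, led by FERMT2 (0.52 ± 0.05) and ZYX (0.38 ± 0.05), and none fell. Of 22 trafficking genes 4 rose, among them RAB5A (0.41 ± 0.06), and none fell. Of 30 ligands 11 rose and 6 fell: TGFB2 rose (0.91 ± 0.13) and the osteopontin gene SPP1 fell (-0.65 ± 0.11). Of 8 other integrin subunits tested none rose and 1, ITGAE, fell (-0.41 ± 0.10, adjusted p = 0.0106).

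When siTRIP12 was added to siOTUD5, ITGA3 and ITGB3 fell and no integrin gene rose. Of all genes tested 8.41% were called, 3.35% higher and 5.07% lower, or 545 higher and 825 lower genes. This count depends on single libraries: it ran from 253 higher and 439 lower genes without siTRIP12+siOTUD5 replicate 1 to 1070 higher and 1404 lower genes without scrambled replicate 3. Groups did not overlap for 5 of the 10 genes, against 33.1% of all genes. ITGA3 fell from 1031 to 1108 CPM in siOTUD5 to 766 to 810 CPM in siTRIP12+siOTUD5 (log2 -0.43 ± 0.06, adjusted p = 0.000416). ITGB3 fell from 38.9 to 40.9 CPM to 29.7 to 32.5 CPM (log2 -0.35 ± 0.08, adjusted p = 0.0107), a call lost without siTRIP12+siOTUD5 replicate 1 (adjusted p = 0.0682). ITGA6, ITGAV and ITGB5 also lay lower in every library with both siRNAs, with log2 values of -0.14, -0.13 and -0.15, but were not called (adjusted p = 0.126, 0.186 and 0.0947). Those 3 were called without scrambled replicate 3 (adjusted p = 0.0361 for ITGA6, 0.0435 for ITGAV and 0.0214 for ITGB5), and also when the fit held the compared groups alone (0.0172, 0.017 and 0.00782). ITGA5 (log2 -0.06) and ITGB1 (0.03) had overlapping groups. Of 38 activators and adaptors 7 fell, among them the kinase-like scaffold ILK (-0.27 ± 0.06), and of 19 surface partners 4 fell, among them CAV1 (-0.42 ± 0.05). Of 22 trafficking genes 2 fell (EHD1 by 0.49 and CALR by 0.22 on the log2 scale). Of 30 ligands 5 rose and 8 fell, and CCN2 (0.51 ± 0.07) and LAMA2 (0.67 ± 0.10) were among the rises.

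The 2 single knockdowns were also compared directly. Of the 10 genes 6 were lower in siTRIP12 than in siOTUD5 and none was higher, where 29.8% of all genes were called, 13.9% higher and 15.9% lower. Groups did not overlap for the 6 called genes, nor for 47% of all genes. ITGA3 showed the widest gap (log2 -0.87 ± 0.06, adjusted p = 2.39e-08), followed by ITGAV (-0.67 ± 0.06, adjusted p = 1.73e-07), ITGB3 (-0.61 ± 0.08), ITGA6 (-0.46 ± 0.05), ITGA5 (-0.39 ± 0.07) and ITGB5 (adjusted p = 0.00133). ITGB1 did not differ beyond its spread (log2 -0.03, adjusted p = 0.758). Of 19 surface partners 11 were lower in siTRIP12 and none higher, and of 38 activators and adaptors 15 were lower and 2 higher. Of 22 trafficking genes 5 were lower, and of 30 ligands 8 were lower and 7 higher.

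Whether the effect of siTRIP12 depended on siOTUD5 was tested as an interaction, the siTRIP12 effect in the siOTUD5 background minus that in the scrambled background. ITGAV and ITGB1 were called, both with positive values, and 8.16% of all genes were called, 4.61% with positive and 3.55% with negative values (751 and 578 genes, but 553 and 638 with upper-quartile scaling). For ITGAV the siTRIP12 effect was -0.74 in the scrambled background and -0.13 in the siOTUD5 background, a difference of 0.61 ± 0.08 (95% interval 0.43 to 0.79, adjusted p = 0.000178). For ITGB1 it was -0.23 and 0.03, a difference of 0.26 ± 0.07 (adjusted p = 0.0346). The ITGB1 call was lost in 8 of the 12 fits that left out 1 library (adjusted p up to 0.113), and that of ITGAV was kept in all of them. ITGB3 lay close to the threshold (0.35 ± 0.11, adjusted p = 0.0714) and was called without scrambled replicate 3 (0.44, adjusted p = 0.00258).

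For the alpha subunits ITGA3, ITGA5 and ITGA6 no such dependence was detected. The interaction was 0.09 for ITGA3 (95% interval -0.10 to 0.28, adjusted p = 0.635), -0.08 for ITGA5 (-0.29 to 0.12, adjusted p = 0.667) and -0.04 for ITGA6 (adjusted p = 0.834). ITGB5 (0.13 ± 0.07, adjusted p = 0.321) and ITGA2 (-0.12) were not called. Among the surrounding genes, 5 of 19 surface partners had positive interactions and none a negative one, led by CD82 (1.16 ± 0.08, adjusted p = 1.61e-07), SDC4 (0.61 ± 0.08) and CD44 (0.38 ± 0.07). Of 30 ligands 3 were positive and 5 negative, with TGFB2 (1.06 ± 0.17), THBS1 (-0.62 ± 0.12) and LAMA4 (-1.04 ± 0.23) among them. Of 22 trafficking genes 3 were positive, RAB5A (0.46 ± 0.09) among them, and 1 was negative. Of 38 activators and adaptors 1 was positive and 2 were negative.

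**Figure D3:**
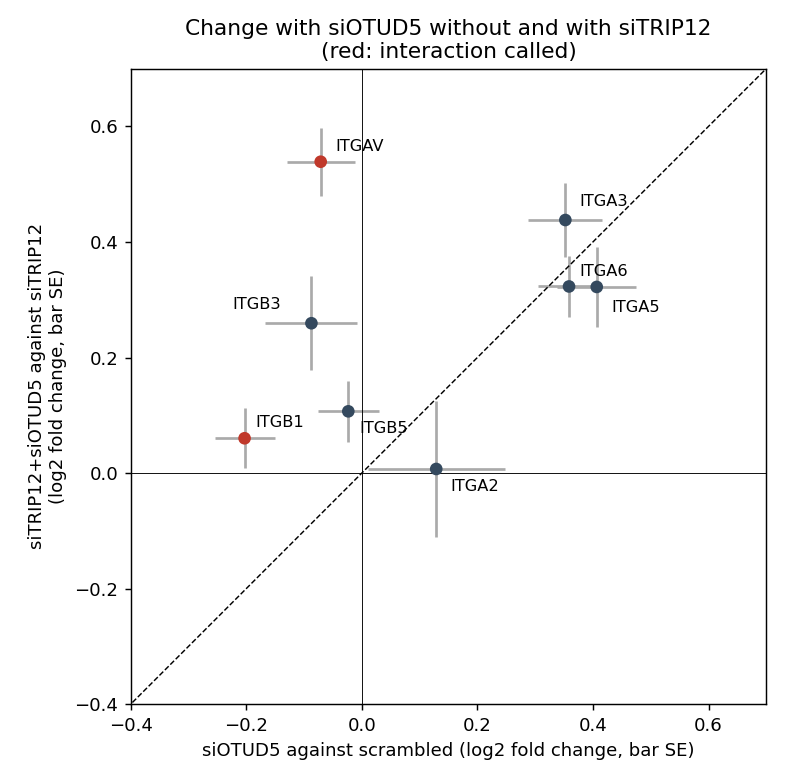
Effect of siOTUD5 on each of the 8 expressed subunits without siTRIP12 (horizontal axis) and with siTRIP12 (vertical axis), in log2 units with standard errors. The dashed line marks equal effects and red points have a called interaction: ITGA3, ITGA5 and ITGA6 lie near it, and ITGAV lies above it by its interaction of 0.61.

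The make-up of integrin RNA, per length, shifted with the knockdowns. The alpha sum was 313 ± 3.69 FPKM in siTRIP12, 456 ± 10.5 in siOTUD5 and 390 ± 9.45 in siTRIP12+siOTUD5, and the beta sum 309 ± 7.82, 320 ± 4.86 and 314 ± 18.2 FPKM. The ratio of alpha to beta sums was therefore 1.04 ± 0.105 in scrambled and 1.01 ± 0.0136 in siTRIP12, but 1.42 ± 0.0140 in siOTUD5 and 1.24 ± 0.0435 in siTRIP12+siOTUD5. ITGA3 kept the largest share of the alpha sum, with 37.2% in siTRIP12, 44.7% in siOTUD5 and 39.1% with both. ITGAV fell from 10.7% in scrambled to 7.83% in siTRIP12, and stood at 8.24% in siOTUD5 and 8.85% with both. The ratio of ITGA5 to ITGAV was 1.91 in scrambled, 3.25 in siTRIP12, 2.65 in siOTUD5 and 2.79 with both. In the beta sum ITGB1 held 80.1%, 75.5% and 79.6% in the 3 knockdown groups, and ITGB5 18.5%, 22.6% and 18.8%. ITGB3 held 1.37%, 1.94% and 1.57%. These shares are descriptions and were not tested. Over all genes tested, the deviation of a gene in a library from its mean was set against its length. Spearman's rho was 0.0708, 0.0559 and -0.305 in scrambled and -0.0219, -0.0527 and -0.220 in siTRIP12. It was 0.0836, 0.200 and 0.0930 in siOTUD5 and 0.125, -0.0359 and 0.179 with both. Effective lengths were 4540 to 8371 bases for the alpha genes, 3993 for ITGB1 and 3982 for ITGB5. The part of length in the ratio was not tested.

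**Figure D4:**
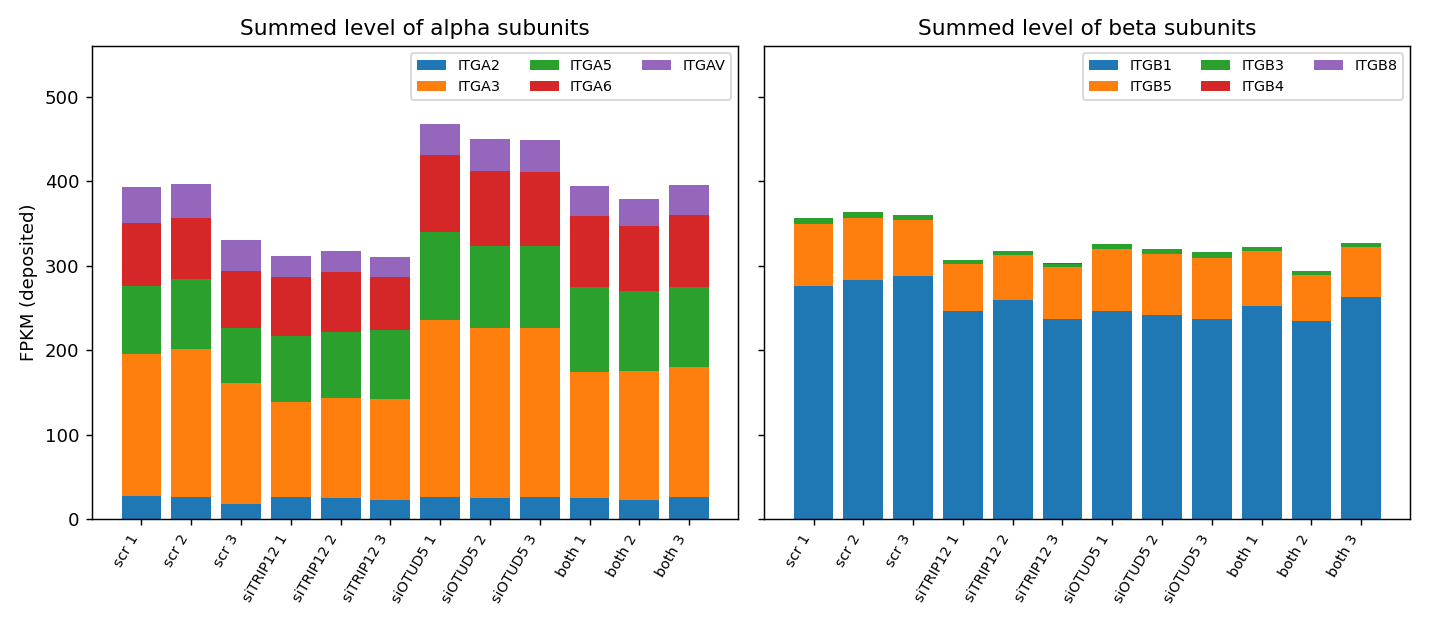
Stacked FPKM of the alpha subunits (left) and the beta subunits (right) in each of the 12 libraries (scr is scrambled, both is siTRIP12+siOTUD5). ITGA3 and ITGB1 take the largest shares in all libraries, the alpha stacks are tallest in siOTUD5 (456 ± 10.5 FPKM), and scrambled replicate 3 is the lowest of its group in alpha RNA.

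The likeness of the subunits over the 12 libraries is described here by Pearson's r of log2 CPM, without sorting them into groups. The libraries share 4 groups and the same scaling, so no p is given. Among the 28 pairs of the 8 expressed subunits, ITGAV and ITGB3 had r = 0.90, ITGB3 and ITGB5 0.90, ITGAV and ITGB5 0.87, and ITGA5 and ITGA6 0.89. ITGA3 was like members of both sets, with 0.84 for ITGAV, 0.83 for ITGB3, 0.82 for ITGA6, 0.81 for ITGB5 and 0.67 for ITGA5. ITGA5 and ITGB1, which form the fibronectin receptor together, had r = -0.43. Of all protein-coding genes with a mean of at least 10 CPM, those most like ITGAV were IL1RAP (0.988), DTX3L (0.984) and TMEM64. Those most like ITGB3 were UBE2L6 (0.984), ATP2B4 (0.983) and IL31RA (0.975), and those most like ITGA3 were ANPEP (0.993), KRT80 (0.990) and PODXL (0.988). ITGA5 was followed by TGFBR2, PTPRF (0.970) and GANAB (0.969), and ITGA6 by OSBPL3 (0.974), ZEB2 (0.972) and PPP1R12A (0.969). ITGB1 was followed by CAND1 (0.964), PNPT1 (0.963) and ACTR2 (0.945), and ITGB5 by NEK9 (0.972), COL6A3 (0.961) and MCM2 (0.958).

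**Figure D5:**
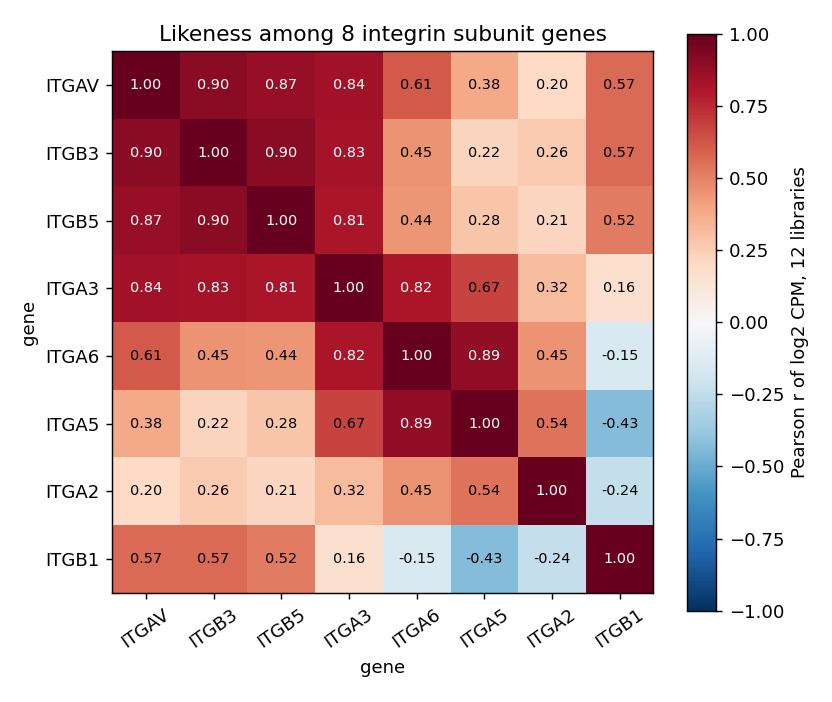
Pearson's r of log2 CPM over 12 libraries for every pair of the 8 expressed subunits, as a colour scale from -1 to 1. ITGAV, ITGB3 and ITGB5 are alike (0.87 to 0.90), as are ITGA5 and ITGA6 (0.89), while ITGA5 and ITGB1 run apart (-0.43).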

How the data were processed

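RNA of 12 libraries in 4 groups of 3 had been sequenced. Per the labels' protocols, total RNA was purified on columns and turned into stranded poly(A) libraries. HISAT2, StringTie and GRCh38 are named in the submitters' processing notes, without versions or roles. The table the authors deposited holds read counts as whole numbers per gene, tested here, and FPKM values scaled by the authors to transcript length and depth, used here for levels between genes. TPM values were also deposited by the authors and were not used. Of the 46427 gene IDs, 44698 were in the RefSeq gene table of GRCh38.p14, whose coordinates are printed and whose release may differ from that of the authors.

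Counts were fitted in R 4.3.3 with edgeR 4.0.16: filterByExpr left 16283 genes, TMM factors scaled the libraries, and a robust quasi-likelihood model took all 12 libraries with 4 group means, leaving 8 degrees of freedom, at a coefficient of variation of 0.0822 between libraries. Adjusted p are Benjamini-Hochberg over all genes tested, called under 0.05. CPM are counts scaled to the TMM-adjusted library total. The fit was tested on simulated data. Library totals of 37912312 to 43881471 reads set the precision, and intervals cover the fitted spread only.

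The integrin genes and the lists around them were chosen with earlier results of these data known. All 10 integrin genes are named in every comparison, of each other list at most the 4 genes with the smallest p, and for likeness the 3 genes of highest r. Alternatives were the unfiltered table, scaling by DESeq2 size factors or by upper quartiles, a replicate block, voom in limma 3.58.1, the DESeq2 1.42.0 test, fits on only the compared groups, and leaving out each library. The result of 1 gene that met this rule is not reported here.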

Additional observations from a re-analysis of the deposited data

Results flagged for a closer look

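ITGAV and ITGB1 stand out because the effect of siTRIP12 differed between cells with and without siOTUD5 by a test of that difference. For ITGAV the difference was 0.61 on the log2 scale (adjusted p = 0.000178, edgeR), with the siTRIP12 libraries at 171 to 189 CPM and every other library at 246 CPM or more. For ITGB1 it was 0.26 (adjusted p = 0.0346), with all 9 knockdown libraries below all 3 scrambled libraries and no separation among the knockdown groups. The ITGB1 call was lost in 8 of the 12 fits that left out 1 library, with the replicate block (adjusted p = 0.0621), with upper-quartile factors (0.058) and with no filter (0.0569), while that of ITGAV was kept in all of these. TRIP12 was at 13.0% of the scrambled level in siTRIP12 and at 16.5% in siTRIP12+siOTUD5, and the part of that gap in either difference was not tested.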

How the results depend on the processing

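No integrin gene that was called changed sign under any alternative run. The number of integrin genes called against scrambled in siTRIP12+siOTUD5 was 6 and became 3 when only the compared groups were fitted. Calls over all genes went from 2394 higher and 2630 lower of 16283 tested to 1959 and 1992 of 15536 in that fit. For siTRIP12+siOTUD5 against siOTUD5 the number went from 2 to 5 in that fit and without scrambled replicate 3, and over all genes from 545 higher and 825 lower calls to 1262 and 1674 in that fit and to 1070 and 1404 without that library. For the interaction it went from 2 to 1 with upper-quartile factors, with no filter and with the replicate block (ITGB1 lost, adjusted p = 0.058, 0.0569 and 0.0621), and to 3 with the DESeq2 test (ITGB3, adjusted p = 0.0488). Leaving out each library in turn gave 5 to 6 integrin calls for siTRIP12, 3 to 5 for siOTUD5 and 3 to 7 for both, each against scrambled. Calls over all genes moved as well, and are given from the fit with the fewest calls over all genes to that with the most. These are not always the fits with the fewest or the most integrin calls. For siTRIP12 the calls over all genes went from 1958 higher and 2182 lower to 2360 and 2889. For siOTUD5 they went from 1257 and 1289 to 1828 and 1963, and for both from 1832 and 2065 to 2352 and 2655. Integrin calls numbered 4 to 5 for both against siTRIP12, 1 to 5 for both against siOTUD5, 6 to 6 between the single knockdowns and 1 to 3 for the interaction. Over all genes, both against siTRIP12 went from 892 higher and 603 lower to 2133 and 1692. Both against siOTUD5 went from 253 and 439 to 1070 and 1404. The single knockdowns went from 1689 and 2052 to 2852 and 3134, and the interaction from 376 and 358 to 1077 and 717. For both against each single knockdown, between the single knockdowns and for the interaction, the most calls over all genes came without scrambled replicate 3. The ITGB3 difference between both siRNAs and siTRIP12 was lost with no filter (adjusted p = 0.0566) and in limma-voom (0.0515), and the ITGB1 fall with both siRNAs was lost with upper-quartile factors (0.0505). The cause was not tested. No shared deviation of same-numbered libraries was seen (r from -0.0734 to 0.0473 over 18 pairs, none above 0.1). This cannot tell whether same-numbered libraries were prepared together. The replicate block, with 1 integrin gene called in the interaction, changed no other call of an integrin gene. With upper-quartile factors the share of higher calls over all genes moved from 45.6% to 57.0% for siTRIP12 against scrambled, from 56.5% to 46.4% for the interaction, from 46.7% to 56.0% between the single knockdowns, from 47.7% to 55.1% for both against scrambled and from 55.9% to 49.7% for both against siTRIP12. ITGB4 and ITGB8 had too few reads for their differences to be detected.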
